A study of Mus musculus with 10 samples.

Results

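The 10 genes described here are those of MHC class II antigen presentation together with March1. They were chosen by name as the transactivator Ciita, the chains H2-Aa, H2-Ab1 and H2-Eb1, the invariant chain Cd74, the peptide-loading genes H2-DMa, H2-DMb2, H2-Oa and H2-Ob, and the ubiquitin ligase gene March1. All 10 were among the 17658 genes of the deposited expression table, and all 10 passed the filter, a mean over the libraries of 1 FPKM or more, that left 10225 genes for testing. FPKM are fragment numbers divided by transcript length and by the size of the library, so levels can be set side by side between genes of a library. Summed FPKM differed between the libraries, as given below, so comparisons between libraries depend on the scaling. Levels below are FPKM, and changes are differences of log2(FPKM + 1). The libraries were made from B cells of spleen and lymph node of C57BL/6 mice aged 10 weeks, enriched magnetically by depleting other cells, and the series asked which inducible genes depend on Nr4a1, the gene of the orphan nuclear receptor Nur77. One library each of Nr4a1+/+ (wild type) and Nr4a1-/- (knockout) B cells received no agent. The remaining libraries, 4 per genotype with the letters A to D, came from cells treated with anti-IgM, an antibody that crosslinks the B cell antigen receptor, at 10 µg/mL for 2 hours. The labels do not say whether the letters are separate mice, so p-values measure only the spread between these libraries, which may be technical. The unstimulated libraries are listed at 0 hours, and the labels do not say whether their cells were cultured for the same time. A change with anti-IgM below therefore means stimulated libraries at 2 hours against these libraries. The part of time in culture was not tested.

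MHC class II molecules are heterodimers of an alpha and a beta chain that carry peptides from endocytosed antigen to the surface of B cells, where helper T cells read them. They are assembled with the invariant chain, which blocks the groove until it is degraded in endosomes and the last fragment is exchanged for peptide by DM, an exchange that DO restrains in B cells. Transcription of the chain, invariant chain and DM genes rests on Ciita, a coactivator that binds no DNA itself and is recruited by proteins sitting on the conserved X and Y boxes of class II promoters, while March1 encodes a membrane ligase that ubiquitinates class II and Cd86 and shortens their stay at the surface.

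Some of the class II promoters carry letters of these boxes, and the stretches that hold them are shown because the genes with them moved in different directions with anti-IgM. RefSeq promoter windows on GRCm38.p6, each 300 bases long, were used for 7 of the 10 genes, and March1 and H2-DMa had more than 1 window. No window was used for Ciita, H2-Ab1 and Cd74, which are left out of the counts below. For Cd74 this was a choice made beforehand, by which any window of that gene was set aside. The capitals mark the Y box letters TGATTGG and, upstream, the X box letters AACNNATG where present. The letters were chosen after these promoters had been read, so the matches are a description. H2-DMb1 and H2-Eb2 are close relatives outside the 10 genes.
H2-Aa, chr17:34287859-34287908, minus strand: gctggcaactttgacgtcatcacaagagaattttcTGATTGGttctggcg
H2-Eb1, chr17:34305771-34305820, plus strand: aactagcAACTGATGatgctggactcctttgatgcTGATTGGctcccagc
H2-DMb2, chr17:34145122-34145171, plus strand: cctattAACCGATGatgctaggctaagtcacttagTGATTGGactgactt
H2-Oa, chr17:34092299-34092348, plus strand: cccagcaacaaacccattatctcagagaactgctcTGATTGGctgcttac
H2-Ob, chr17:34238811-34238860, plus strand: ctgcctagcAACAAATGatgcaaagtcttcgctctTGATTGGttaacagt
H2-DMb1, chr17:34153093-34153142, plus strand: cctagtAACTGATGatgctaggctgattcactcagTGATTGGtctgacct
H2-Eb2, chr17:34325538-34325587, plus strand: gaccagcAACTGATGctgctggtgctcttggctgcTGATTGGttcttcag

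TGATTGG stood in the promoters of 5 of the 7 genes whose windows were used, H2-Aa, H2-Eb1, H2-DMb2, H2-Oa and H2-Ob. Searched on both strands, it stood in 7.82% of all 32851 promoter windows in the table. AACNNATG followed by TGATTGG on the same strand with a gap of 10 to 30 bases stood in 3 of the 7, H2-Eb1, H2-DMb2 and H2-Ob, with gaps of 20, 21 and 18 bases. That arrangement was present in 15 of all windows, which is 0.0457%, and 5 of those 15 belonged to class II genes. None of the 3 windows of March1 held TGATTGG, and neither did the windows of H2-DMa. Absence of these letters says nothing more than that they do not stand in this window.

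On GRCm38.p6, 7 of the 10 genes lie in the class II region of chromosome 17. H2-Oa spans chr17:34092379-34095234, H2-DMa chr17:34119693-34139101 and H2-DMb2 chr17:34143229-34151553. Further along come H2-Ob at chr17:34238905-34245908, H2-Ab1 at chr17:34263227-34269418, H2-Aa at chr17:34282744-34287823 and H2-Eb1 at chr17:34305867-34316674. Ciita lies apart at chr16:10480014-10531064, and March1, listed by RefSeq as Marchf1, at chr8:65618009-66472841.

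The libraries were checked before the genes were compared. Nr4a1 itself read 126 and 126 FPKM in the unstimulated wild-type and knockout libraries, 806, 744, 826 and 856 FPKM in the stimulated wild-type libraries and 713, 675, 760.0 and 660.2 FPKM in the stimulated knockout libraries. Gene-level RNA of the deleted gene was therefore not lost in the libraries labelled knockout. After anti-IgM it was slightly lower there, by -0.20 ± 0.0531 (SE; limma, as described below, adjusted p = 0.0432), with overlapping libraries. Without the filter the adjusted p was 0.122. Which exons the allele removes is not given in the sources used here, so these values neither verify nor refute the genotype, and knockout below means the libraries so labelled. Summed FPKM over the table was 674961 in the unstimulated wild-type library, 595500 in the unstimulated knockout library and between 557214 and 571784 in the stimulated libraries. Relative depth, read from the smallest steps of 35 low genes, ran from 0.924 to 1.05, and absolute depth is unknown. B cell marker genes were high, with Cd79a between 469 and 1229 FPKM, and the 6 T and NK cell markers in the table were at most 0.53 FPKM each. Markers of dendritic cells and macrophages, which also express class II, were low: of 10 markers, 7 passed the filter, and Xcr1, Clec9a and Siglech stayed under 1 FPKM in every library. Their summed level was 77.9 and 97.2 FPKM in the unstimulated wild-type and knockout libraries, 52.4 to 152 FPKM in the stimulated wild-type libraries and 37.1 to 116 FPKM in the stimulated knockout libraries. The largest part of that sum was Lyz2, which after anti-IgM read 31.9, 115, 27.1 and 26.6 FPKM for wild type and 53.0, 82.6, 15.8 and 17.4 FPKM for knockout in the order of the letters, so that letter B was highest in both genotypes.

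The 10 genes spanned more than 3 orders of magnitude in level. In the 8 stimulated libraries H2-Aa and Cd74 stood highest with overlapping ranges, 6406 to 7425 FPKM and 6659 to 7479 FPKM. H2-Ab1 came next with 3234 to 3671 FPKM, then H2-Eb1 with 2534 to 2904 FPKM, and these neighbours did not overlap. H2-Aa was never lower than rank 7 among all genes of the table, and Cd74 never lower than rank 11. The peptide-loading genes were an order of magnitude lower: H2-Ob, at 270.1 to 293 FPKM, lay above H2-DMb2, at 228 to 248 FPKM, and both lay above H2-Oa, at 82.2 to 91.2 FPKM. Ciita and H2-DMa overlapped, at 42.3 to 58.0 FPKM and 45.5 to 51.4 FPKM. March1 was the lowest, at 4.85 to 6.39 FPKM. The order was different without stimulation, where March1, at 74.98 and 68.2 FPKM, was of the same order as Ciita, at 76.1 and 101 FPKM, in wild-type and knockout cells. The plot of levels by library shows these values gene by gene.

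**Figure D1:**
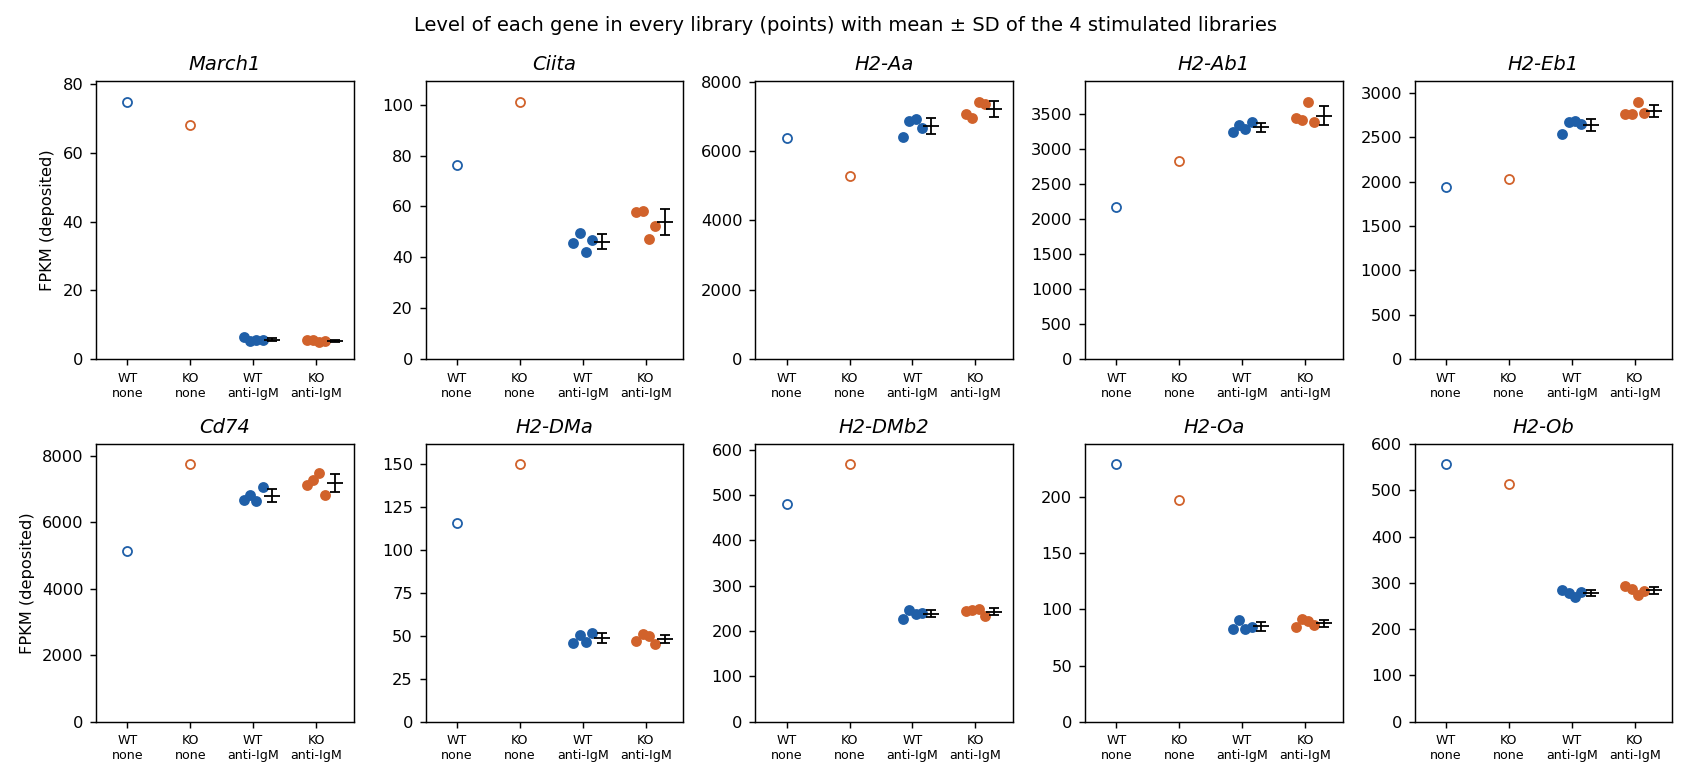
FPKM of the 10 genes in each of the 10 libraries, on a linear vertical axis starting at 0 with its own range for each gene; points are single libraries, wild type (WT) and knockout (KO) without agent or with anti-IgM, and bars give mean ± SD of the 4 stimulated libraries of a genotype. March1, Ciita, H2-DMa, H2-DMb2, H2-Oa and H2-Ob lie lower in all 8 stimulated libraries than in both unstimulated ones, H2-Aa, H2-Ab1 and H2-Eb1 lie higher, and Cd74 does not separate.

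After 2 hours with anti-IgM, 9 of the 10 genes were called against the unstimulated libraries, in different directions, where 78.9% of all genes tested were called. RNA of March1, of Ciita and of all 4 peptide-loading genes fell, RNA of the chains H2-Aa, H2-Ab1 and H2-Eb1 rose, and Cd74 did not pass the test. Thus 6 of 10 genes were called lower, against 47.7% of all genes tested, and 3 of 10 higher, against 31.2%. A called fall of 1 or more in log2 was reached by 4 of the 10 (March1, H2-DMa, H2-DMb2 and H2-Oa), against 12.4% of all genes, and a rise of that size by none, against 7.94%. All 8 stimulated libraries lay below both unstimulated ones for the 6 genes that fell, against 44.3% of all genes, and above both for the 3 that rose, against 28.6%. The median change of the 10 genes was -0.87, and that of all genes tested was -0.17. The latter moved to -0.031 after rescaling to TPM, transcripts summed to a fixed total per library, to -0.039 with median-of-ratios scaling and to -0.0022 with quantile normalization. The calls over all genes, 3188 higher and 4881 lower, moved to 3891 and 3868 with quantile normalization. Relative to the median on deposited FPKM, the changes were -3.32 for March1, -0.64 for Ciita, -1.25 for H2-DMa, -0.94 for H2-DMb2, -1.12 for H2-Oa and -0.75 for H2-Ob, and 0.62, 0.63, 0.43 and 0.32 for H2-Ab1, H2-Eb1, H2-Aa and Cd74. The test was limma on log2(FPKM + 1) over all 10 libraries with a term for genotype, with Benjamini-Hochberg adjustment over 10225 genes and calls at an adjusted p under 0.05. Each genotype had 1 unstimulated library, so the disagreement between those 2 libraries enters the spread together with that of the stimulated ones. In bulk RNA, fewer cells of a type and less RNA per cell cannot be told apart.

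Ciita, the master coactivator, read 76.1 FPKM in the wild-type library without stimulation and 101 FPKM in the corresponding knockout library. After anti-IgM it read 45.7, 49.6, 42.3 and 47.0 FPKM in the wild-type libraries and 57.7, 58.0, 47.2 and 52.3 FPKM in the knockout libraries. All 8 stimulated values lay below both unstimulated values, with a change of -0.81 ± 0.0818 (SE; limma, adjusted p = 3.27e-06). The unstimulated level was 1.65 times the stimulated mean in wild type and 1.88 times in knockout.

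The chain genes moved the other way. H2-Ab1, the beta chain of I-A, read 2172 and 2824 FPKM in the unstimulated wild-type and knockout libraries, 3234, 3337, 3279.7 and 3375 FPKM in the stimulated wild-type libraries and 3440.0, 3405, 3671 and 3376 FPKM in the stimulated knockout libraries. All stimulated values were above both unstimulated ones, and the change was 0.45 ± 0.0698 (SE; limma, adjusted p = 1.07e-04). It was 0.84 with quantile normalization and 0.30 without the unstimulated wild-type library, both called. Quantile normalization sets each value to the mean over the libraries at its rank. For genes at the top of the ranking, its values therefore follow shifts of rank rather than level. Over the libraries H2-Ab1 ranked between 9 and 64, H2-Aa between 5 and 7 and Cd74 between 4 and 11. H2-Eb1, the beta chain of I-E, read 1946 and 2026 FPKM unstimulated, 2534, 2675, 2686 and 2655 FPKM in stimulated wild type and 2759.9, 2760.5, 2904 and 2779 FPKM in stimulated knockout. It likewise rose without overlap, by 0.45 ± 0.0483 (SE; limma, adjusted p = 5.07e-06), and its stimulated mean was 1.36 times the unstimulated level in wild type and 1.38 times in knockout. With quantile normalization the change was 0.81. I-E needs an alpha chain as well, and C57BL/6 mice carry a defective Ea gene, entered in the table as the pseudogene H2-Ea-ps, which was at most 0.40 FPKM in any library.

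H2-Aa, the alpha chain of I-A, and Cd74, the invariant chain, gave less even results, and their calls turned on which unstimulated library was included. H2-Aa read 6389.6 FPKM in the wild-type library without stimulation and 5293 FPKM in the unstimulated knockout library, then 6406, 6871, 6931 and 6671 FPKM in stimulated wild type and 7063, 6951, 7425 and 7367 FPKM in stimulated knockout. Every stimulated value exceeded both unstimulated ones, though the lowest did so by little, and the change was 0.26 ± 0.0827 (SE; limma, adjusted p = 0.0139). Without the unstimulated knockout library it was 0.072 (limma, adjusted p = 0.277), and after quantile normalization 0.047 (adjusted p = 0.299), neither of which passed. It was called under 16 of 21 alternatives, with 0.42 as TPM, 0.41 on median-of-ratios scaling and 0.44 without the unstimulated wild-type library. Cd74 read 5130.1 and 7749 FPKM in the unstimulated wild-type and knockout libraries, 6669, 6812, 6659 and 7073 FPKM in stimulated wild type and 7113, 7264, 7479 and 6835 FPKM in stimulated knockout. The 8 stimulated values lay between the 2 unstimulated ones, and the change of 0.15 ± 0.0995 (SE; limma, adjusted p = 0.194) was not called. It was called under 4 of 21 alternatives: at 0.31 after rescaling to TPM (adjusted p = 0.0262), 0.30 with median-of-ratios scaling (adjusted p = 0.0196), 0.63 with quantile normalization (adjusted p = 0.00688) and 0.41 without the unstimulated knockout library (adjusted p = 1.14e-04). Without the unstimulated wild-type library the value was -0.11.

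Both subunits of DM, the peptide exchange factor, fell. H2-DMa, its alpha chain, read 116 and 149.6 FPKM in the unstimulated wild-type and knockout libraries, 45.6, 50.3, 46.5 and 51.4 FPKM in stimulated wild type and 47.0, 50.8, 49.7 and 45.5 FPKM in stimulated knockout. Stimulated and unstimulated values were far apart, with a change of -1.43 ± 0.0796 (SE; limma, adjusted p = 2.11e-08). H2-DMb2, a beta chain, read 479.9 and 568 FPKM unstimulated, 228, 246, 238 and 239 FPKM in stimulated wild type and 245, 246, 248 and 233 FPKM in stimulated knockout, a change of -1.12 ± 0.0515 (SE; limma, adjusted p = 4.73e-09). Its near-identical neighbour H2-DMb1 fell as well, with a change of -0.88 (limma, adjusted p = 2.36e-08). How the counting divided reads between these neighbours is uncertain, and H2-DMb2 stood at 4.92 and 4.81 times H2-DMb1 in the unstimulated wild-type and knockout libraries, 4.22 to 4.48 times in stimulated wild type and 3.83 to 4.06 times in stimulated knockout.

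The subunits of DO, which restrains DM, fell too. H2-Oa, the alpha chain, read 229 and 197 FPKM in the unstimulated wild-type and knockout libraries, 82.2, 90.6, 82.5 and 84.4 FPKM in stimulated wild type and 84.3, 91.2, 89.5 and 85.8 FPKM in stimulated knockout. The groups did not overlap, and the change was -1.29 ± 0.0607 (SE; limma, adjusted p = 5.42e-09). H2-Ob, the beta chain, read 556 and 514 FPKM unstimulated, 284, 278, 270.1 and 280.0 FPKM in stimulated wild type and 293, 286, 273 and 283 FPKM in stimulated knockout, a change of -0.93 ± 0.0437 (SE; limma, adjusted p = 5.63e-09). Set against each other within a library, H2-DMb2 was 0.863 and 1.11 times H2-Ob in the unstimulated wild-type and knockout libraries and 0.801 to 0.908 times in the stimulated ones.

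March1 RNA fell further than that of any other of the 10 genes. It read 74.98 FPKM in the unstimulated wild-type library, 68.2 FPKM in the unstimulated knockout library, 6.39, 5.25, 5.45 and 5.45 FPKM in the stimulated wild-type libraries and 5.53, 5.59, 4.85 and 5.14 FPKM in the stimulated knockout libraries. The stimulated values of the genotypes were intermingled and all were far below the unstimulated ones. The change was -3.49 ± 0.0719 (SE; limma, adjusted p = 2.86e-11), rank 2 by size among the falls of all genes tested. On the FPKM scale the unstimulated level was 13.3 times the stimulated mean in wild type and 12.9 times in knockout. Each of the 6 falls (March1, Ciita, H2-DMa, H2-DMb2, H2-Oa and H2-Ob) was called under all 21 alternatives computed for it.

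**Figure D2:**
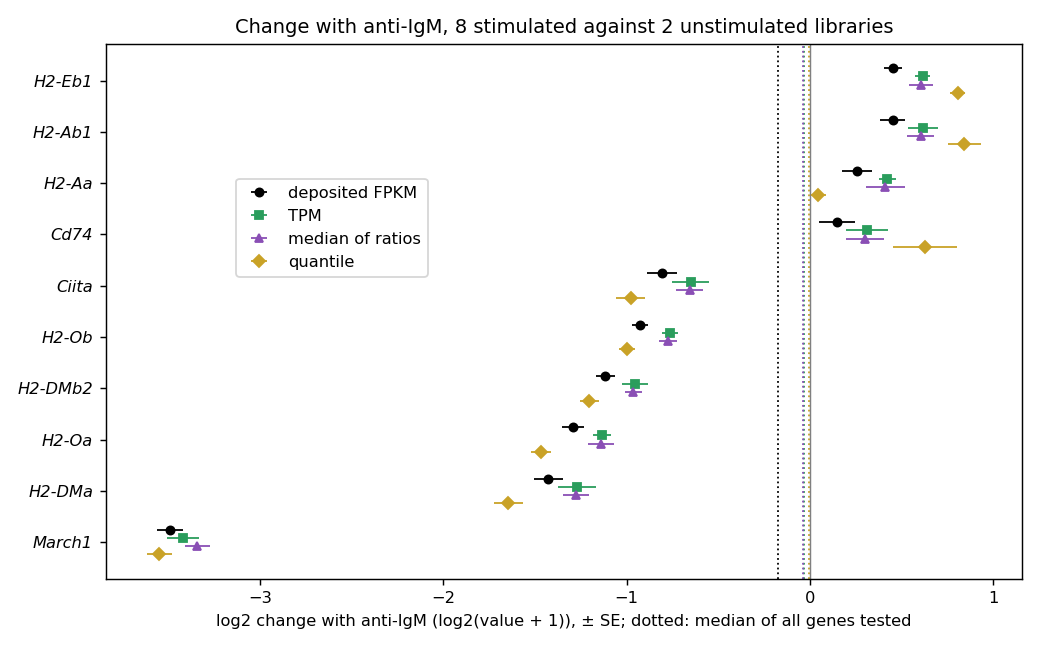
Change of each of the 10 genes with anti-IgM as a difference of log2(value + 1), with its standard error, from deposited FPKM and under 3 other scalings; dotted lines mark the median change of all genes tested under each scaling. March1 lies at -3.49 on deposited FPKM, 5 further genes lie below the medians, and the 4 chain and invariant chain genes lie above them, H2-Aa close to 0 under quantile normalization.

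Ratios within a library do not change when all its genes are scaled by a common factor, although quantile normalization can change them. On deposited FPKM they show how far the parts of the pathway separated. H2-Ab1 stood at 18.8 and 18.9 times H2-DMa in the unstimulated wild-type and knockout libraries and at 65.6 to 74.3 times in the stimulated libraries. Against its own coactivator, H2-Ab1 stood at 28.5 and 27.9 times Ciita without stimulation and at 58.7 to 77.7 times with it. In both cases the 2 unstimulated libraries lay close together and apart from the stimulated ones. The paired chains did not give such a pattern, with H2-Aa at 2.94 and 1.87 times H2-Ab1 in the unstimulated libraries on either side of the stimulated range of 1.98 to 2.18. The 3 chains and Cd74 together made up 2.32% and 3.0% of summed FPKM in the unstimulated wild-type and knockout libraries and 3.35% to 3.76% in the stimulated ones, and the DM and DO genes among the 10 made up 0.205% and 0.240% before and 0.112% to 0.120% after.

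The genes with the pattern most like that of March1 were sought over the 10 libraries among 7683 genes whose mean reached 5 FPKM, by Euclidean distance of centred log2(FPKM + 1). Of the 5 nearest, 4 are given. Icosl, the ligand of the T cell costimulator ICOS, went from 68.8 and 90.1 FPKM to 5.60 to 6.97 FPKM (distance 0.443). Tmem173, the adaptor STING, Rnase6, a secreted ribonuclease, and Pecam1, an adhesion molecule, stood at distances of 0.449, 0.580 and 0.581. Nearest to Ciita were Slc2a6, Trio, Fuca1, Ift27 and Pigc, at distances of 0.269 to 0.284. All points share the same 2 unstimulated libraries, so the order describes these libraries only.

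The lists around the 10 genes were read in the same fit, in which 47.7% of all genes were called lower and 31.2% higher. Of 7 factors that bind class II promoters, 5 fell, none rose and 2 were not called, with a median change of -0.29 beside -0.17 for all genes. Rfxank, a subunit of the RFX complex on the X box, fell, at -1.10 (limma, adjusted p = 2.35e-07). Its partner Rfx5 changed by -0.65, the Y box factor Nfyb by -0.48 and Creb1 by -0.29, each called, although Creb1 was called under 19 of 21 alternatives. Factors upstream of Ciita in B cells were split, 5 higher and 3 lower of 8, with a median of 0.36. Pax5, the B cell identity factor, fell, at -1.24 (limma, adjusted p = 1.49e-09), and the E protein Tcf3 changed by -1.73. Irf4, a factor of activated B cells, rose by 3.11 (limma, adjusted p = 1.04e-11), Irf8 by 1.43 and Prdm1, which encodes the Ciita repressor Blimp-1, by 1.04.

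Of 11 genes of endosomal processing, 6 fell, 2 rose and 3 were not called, beside 47.7% lower and 31.2% higher over all genes, with a median of -0.94. The largest falls were in Ctse, an aspartic protease, at -1.67, Sppl2a, which cleaves the last membrane fragment of the invariant chain, at -1.44, the protease Ctsh at -1.32 and the protease inhibitor Cst3 at -1.29. Among the 5 other membrane March ligases, 3 passed the filter, and March3 rose by 1.37 while March2 fell, at -0.82. All 3 genes listed as March1 targets or opponent rose. Cd83, whose product opposes March1, read 619.9 and 529 FPKM in the unstimulated wild-type and knockout libraries and 1433 ± 20.7 FPKM (SD, n = 4) and 1499 ± 38.0 FPKM (SD, n = 4) in the stimulated ones, a change of 1.35 ± 0.0606 (SE; limma, adjusted p = 3.73e-09). Cd86, a costimulatory ligand that March1 ubiquitinates, read 92.7 and 97.1 FPKM unstimulated and 143 ± 4.05 FPKM (SD, n = 4) and 172 ± 6.39 FPKM (SD, n = 4) stimulated, a change of 0.72 ± 0.0506 (SE; limma, adjusted p = 1.49e-07). Tfrc, the transferrin receptor, rose by 1.68 (limma, adjusted p = 1.31e-08).

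Beside these falls, 5 of the 6 B cell markers also fell and 1 rose, beside the same 47.7% and 31.2% over all genes, with a median of -1.11. Cd79b and Cd79a, the signalling chains of the antigen receptor, changed by -2.13 and -1.24, and Ms4a1 changed by -1.10. Of the 7 dendritic cell and macrophage markers tested, 1 rose (Zbtb46, at 1.48) and 1 fell (Emr1, at -0.56, a call lost without either unstimulated library). Whether these movements have a part in the results on the 10 genes was not tested.

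**Figure D3:**
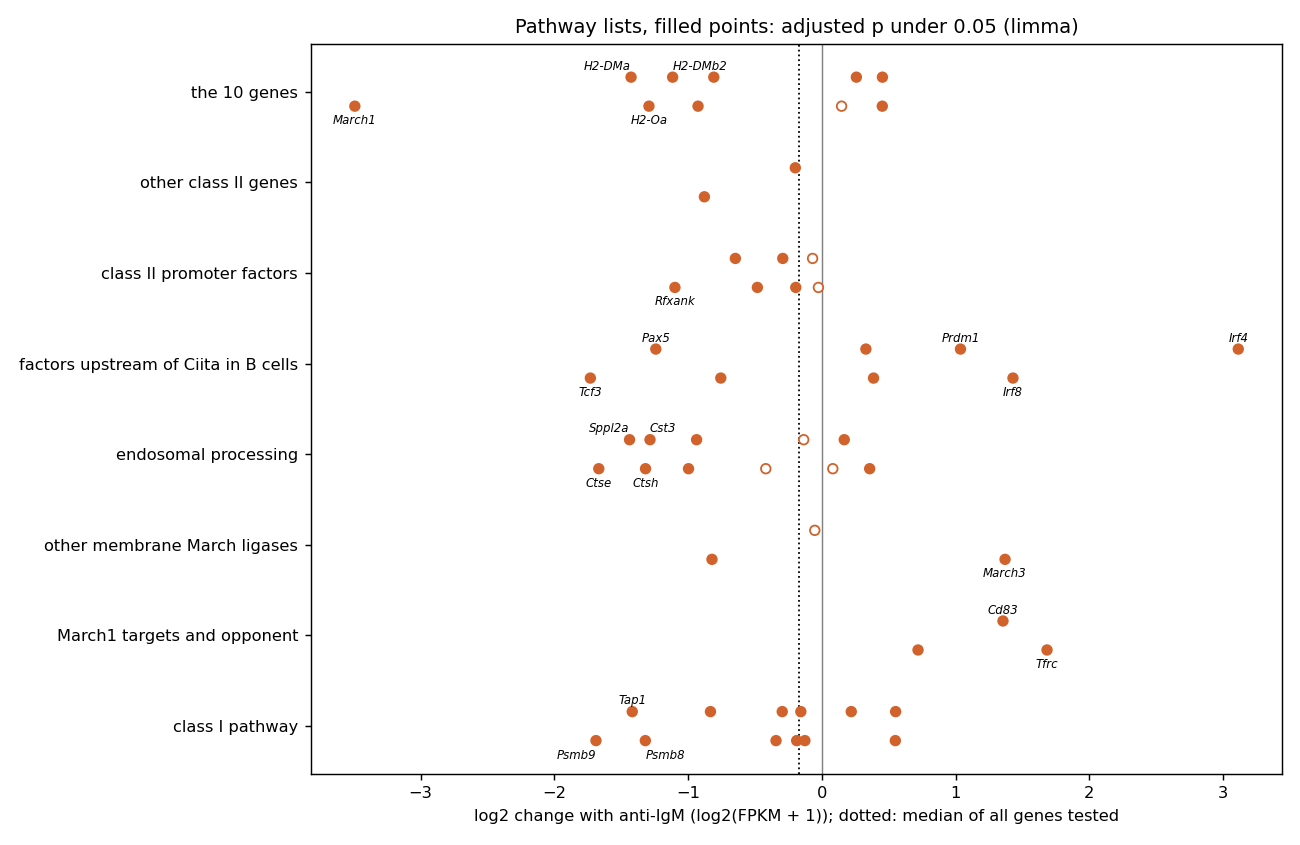
Change with anti-IgM, as a difference of log2(FPKM + 1) from limma over 10 libraries, for the tested genes of 8 lists, with 1 point a gene and filled points at an adjusted p under 0.05; the dotted line marks the median of all genes tested, -0.17. March1 lies farthest to the left at -3.49, and Irf4 farthest to the right at 3.11.

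After stimulation the 10 genes differed little between genotypes. None of the 10 was called in limma with 4 libraries of each genotype, against 9.72% of all genes tested (3.91% higher and 5.81% lower in knockout), with adjusted p between 0.0964 and 0.964. At an unadjusted p under 0.05 there were 3 genes, Ciita, H2-Aa and H2-Eb1, against 22.1% of all genes. In 8 of the 10 the knockout value was higher and in 2, March1 and H2-DMa, lower. With quantile normalization H2-Ab1 came to a difference of 0 and H2-Ob and H2-DMa changed sign, and H2-DMa did so with median-of-ratios scaling too. The quantile values of the highest genes, H2-Ab1 among them, follow rank, as said above, so a value of 0 does not mean equal levels. The calls over all genes, 400 higher and 594 lower in knockout, moved to 532 and 406 with median-of-ratios scaling. The median difference was 0.058, beside -0.024 for all genes.

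The chain genes were the ones that separated. H2-Aa was 6720.1 ± 237 FPKM (SD, n = 4) in stimulated wild type and 7201 ± 231 FPKM (SD, n = 4) in stimulated knockout, a difference of 0.10 ± 0.0364 (SE; limma, adjusted p = 0.137), with no overlap between the libraries listed above. H2-Eb1 was 2637 ± 70.3 FPKM (SD, n = 4) and 2801 ± 69.2 FPKM (SD, n = 4), a difference of 0.087 ± 0.0294 (SE; limma, adjusted p = 0.109), and H2-Ab1 was 3306 ± 62.1 FPKM (SD, n = 4) and 3473 ± 135 FPKM (SD, n = 4), a difference of 0.07 ± 0.0325 (SE; limma, adjusted p = 0.245), again without overlap. All 4 knockout libraries were thus above all 4 wild-type libraries for these 3 of the 10 genes, against 15.5% of all genes that did not overlap in either direction and 5.96% with knockout higher. The two-sided exact permutation test gave p = 0.0286 for each of them, the smallest that 4 against 4 libraries allow, unadjusted. Every gene without overlap gets this p, so it restates the separation and adds no further test. The differences were small beside the changes with anti-IgM, and the 3 chains and Cd74 together made up 3.43 ± 0.0638% of summed FPKM in stimulated wild type and 3.66 ± 0.0753% in stimulated knockout (SD, n = 4). The separation was narrow for H2-Ab1, between 3374.59 FPKM in wild-type library D and 3376.16 FPKM in knockout library D. For H2-Aa it lay between 6931.11 FPKM in wild-type library C and 6950.94 FPKM in knockout library B. Rescaled to TPM, H2-Aa and H2-Eb1 were called (limma, adjusted p = 0.0391 and 0.0340). With quantile normalization H2-Aa differed by 0.022 (limma, adjusted p = 0.774) and H2-Ab1 by 0, while H2-Eb1 was called at 0.11 (adjusted p = 0.0221).

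Ciita had the lowest adjusted p of the 10. It was 46.1 ± 3.06 FPKM (SD, n = 4) in stimulated wild type and 53.8 ± 5.13 FPKM (SD, n = 4) in stimulated knockout, a difference of 0.22 ± 0.0701 (SE; limma, adjusted p = 0.0964), with knockout library C below the highest wild-type library and an exact permutation p of 0.0571. Without knockout library C the difference was 0.28 and was called (adjusted p = 0.0251), and with median-of-ratios scaling its adjusted p was 0.0402. Cd74 was 6803 ± 193 FPKM (SD, n = 4) and 7173 ± 271 FPKM (SD, n = 4), a difference of 0.076 ± 0.0361 (SE; limma, adjusted p = 0.261), with overlapping libraries.

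March1 was 5.63 ± 0.512 FPKM (SD, n = 4) in stimulated wild type and 5.28 ± 0.348 FPKM (SD, n = 4) in stimulated knockout, a difference of -0.078 ± 0.0672 (SE; limma, adjusted p = 0.556) that lay within the spread of the libraries. H2-DMa was 48.5 ± 2.84 FPKM (SD, n = 4) and 48.2 ± 2.46 FPKM (SD, n = 4), a difference of -0.0058 ± 0.0486 (SE; limma, adjusted p = 0.964). The other peptide-loading genes, H2-DMb2, H2-Oa and H2-Ob, differed by 0.033, 0.046 and 0.029, with standard errors of 0.0305, 0.0380 and 0.0269, and all overlapped between genotypes.

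**Figure D4:**
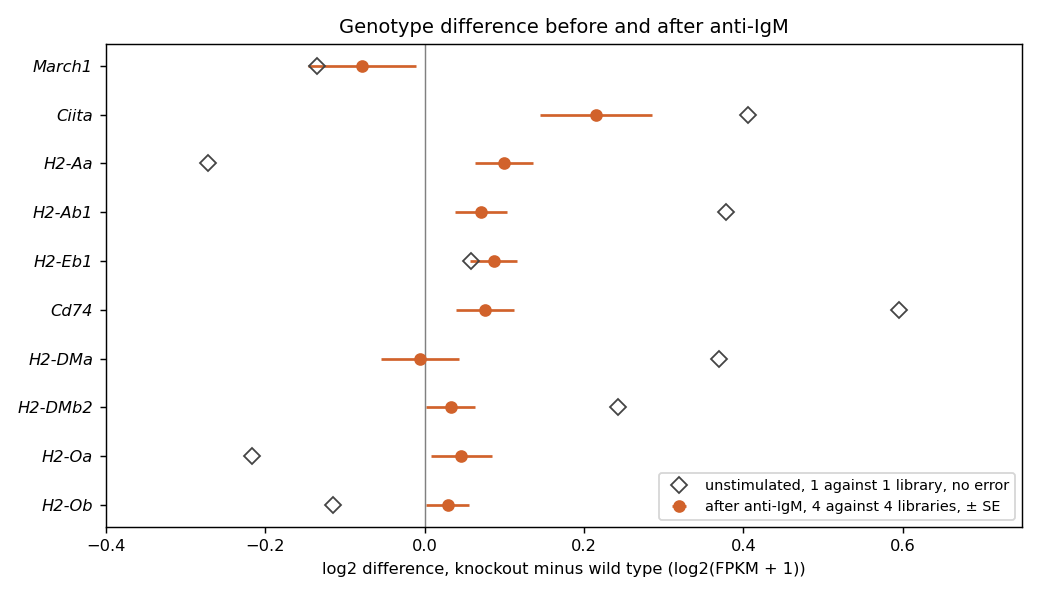
Knockout minus wild type for the 10 genes, as a difference of log2(FPKM + 1) on the horizontal axis; filled points with bars are limma estimates ± SE after anti-IgM over 4 libraries of each genotype, and open diamonds are the difference between the 2 single unstimulated libraries, which has no error. After anti-IgM the points lie between -0.078 for March1 and 0.22 for Ciita, and the diamonds scatter from -0.27 for H2-Aa to 0.59 for Cd74.

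Around the 10 genes, some members of the lists did differ by genotype, where 3.91% of all genes were called higher and 5.81% lower in knockout. H2-DMb1 was 54.9 ± 3.11 FPKM (SD, n = 4) in stimulated wild type and 61.2 ± 0.796 FPKM (SD, n = 4) in stimulated knockout, a difference of 0.15 ± 0.0388 (SE; limma, adjusted p = 0.0362), called under 9 of 19 alternatives and lost without wild-type library C or D or any 1 knockout library. Cd86 was higher in knockout by 0.26 (limma, adjusted p = 8.43e-04), while Cd83 was not called, at 0.065 (limma, adjusted p = 0.167). March3 was higher by 0.36 (limma, adjusted p = 0.0336), called under 12 of 19 alternatives and lost without any 1 of wild-type libraries A, B and D or knockout libraries A, C and D. Prdm1 was higher by 0.44 (limma, adjusted p = 0.0101). Ctse was lower, at -1.69 (limma, adjusted p = 1.76e-07). Of the 7 promoter factors only Creb1 was called, at 0.12 (limma, adjusted p = 0.0414), under 9 of 19 alternatives, and the call was lost without any 1 library except wild-type library C. Of the 6 B cell markers none was higher and 2 were lower, Cd79b at -0.32 (limma, adjusted p = 5.40e-04) and Cr2 at -0.52 (limma, adjusted p = 2.74e-04). Cr2 lay outside the rule for naming and is named after its value was seen. Of the 7 dendritic cell and macrophage markers tested, Zbtb46 was higher, at 0.39 (limma, adjusted p = 0.00332), and Flt3 lower, at -0.44 (limma, adjusted p = 0.00488). The part of these markers in the genotype differences of the 10 genes was not tested.

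Genes of those lists that the rule for naming did not cover were singled out after their values were seen. Spib, an Ets factor of B cells, was 243 ± 7.64 FPKM (SD, n = 4) in stimulated wild type and 308 ± 9.75 FPKM (SD, n = 4) in stimulated knockout, a difference of 0.34 ± 0.0310 (SE; limma, adjusted p = 1.52e-04). Ifi30, the endosomal thiol reductase GILT that unfolds antigen, read 209 and 267 FPKM in the unstimulated wild-type and knockout libraries and 99.6 ± 2.19 FPKM (SD, n = 4) and 139 ± 4.36 FPKM (SD, n = 4) in the stimulated ones, a difference of 0.48 ± 0.0285 (SE; limma, adjusted p = 1.46e-05) after stimulation without overlap. Both were called under all 19 alternatives. Lgmn, the asparagine endopeptidase, was lower in knockout, at -0.17 (limma, adjusted p = 0.0267), called under 9 of 19 and lost without any 1 of wild-type libraries B, C and D or knockout libraries A, C and D.

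The response to anti-IgM was compared between genotypes by the interaction of genotype and stimulation, in which the spread of the single unstimulated libraries is assumed to equal that of the stimulated ones. Of the 10 genes, 4 were called, against 18.9% of all genes tested: H2-Aa with a higher response in knockout, against 4.18%, and H2-Ab1, Cd74 and H2-DMa with a lower one, against 14.7%. Over all genes 427 were higher and 1504 lower, and the split moved to 175 and 3455 after rescaling to TPM and to 573 and 818 with median-of-ratios scaling. The median over the 10 genes was -0.081 and over all genes -0.10. These values rest on the same unstimulated libraries as the changes above.

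H2-Aa and H2-Ab1, the chains of one heterodimer, differed in opposite directions. The change of H2-Aa was 0.072 in wild type and 0.44 in knockout, a difference of 0.37 ± 0.0808 (SE; limma, adjusted p = 0.0136). That of H2-Ab1 was 0.61 in wild type and 0.30 in knockout, a difference of -0.31 ± 0.0720 (SE; limma, adjusted p = 0.0181). After quantile normalization the difference for H2-Aa was 0.022 (adjusted p = 0.872), and with median-of-ratios scaling that for H2-Ab1 was -0.23 (adjusted p = 0.143). The difference for H2-Aa was 0.20 after rescaling to TPM, and that for H2-Ab1 was -0.48 after rescaling to TPM and -0.57 with quantile normalization, all called.

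The difference for Cd74 was -0.52 ± 0.0802 (SE; limma, adjusted p = 0.00390), with a change of 0.41 in wild type and -0.11 in knockout, and it was called under all 17 alternatives, with -1.02 under quantile normalization. The change of H2-DMa was -1.24 and -1.61 in wild type and knockout, and the difference of -0.37 ± 0.108 (SE; limma, adjusted p = 0.0402) was called under 9 of 17 alternatives and lost without wild-type library B or D or knockout library A or D. Leaving out a library added H2-DMb2 (without wild-type library A) or H2-Oa (without wild-type library B) to the genes called. March1 did not differ detectably in response, at 0.057 ± 0.142 (SE; limma, adjusted p = 0.822), nor did H2-Eb1, at 0.029 (limma, adjusted p = 0.798), or Ciita, at -0.19 (limma, adjusted p = 0.439). H2-Eb1 was called with the opposite sign after rescaling to TPM, at -0.15 (adjusted p = 0.0452), and with quantile normalization, at -0.19 (adjusted p = 0.0355). Between the unstimulated libraries themselves, which allow no test, knockout minus wild type was 0.59 for Cd74, 0.41 for Ciita, 0.38 for H2-Ab1, 0.37 for H2-DMa and -0.27 for H2-Aa. For Cd74, H2-Ab1 and H2-DMa this unstimulated gap was larger than the gap between the stimulated means, and for H2-Aa it had the opposite sign.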

How the data were processed

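B cell RNA was measured by stranded mRNA sequencing in 10 libraries. The authors deposited 1 table of FPKM per gene, estimated with RSEM 1.2.14 after alignment with STAR 2.4 to mm10, as far as the submitters' processing notes name tools and build. The gene annotation and the use of strand are not given in the sources used here. FPKM are not counts, so no count model was fitted, and the low values gave relative depth but no absolute depth. Columns were matched to samples by their names.

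The values were analysed as log2(FPKM + 1), a scale that understates changes of low genes. Genes whose mean reached 1 FPKM were tested with limma 3.58.1 in R 4.3.3 (lmFit, eBayes with trend, two-sided), and p-values were adjusted by Benjamini-Hochberg over all 10225 genes tested. Genotype was compared in the 8 stimulated libraries, anti-IgM in all 10 with a genotype term, and the response by an interaction. Single genes were also compared by an exact permutation test over 70 labellings. The fits were tested on simulated data. There the unstimulated libraries were given the spread of the stimulated ones, so the simulation cannot check that assumption. Alternatives were pseudocounts, filters, TPM, median-of-ratios and quantile scaling, eBayes without trend, the letter as a block, letter A alone, and each library left out. The 10 genes and the lists were chosen with earlier results of these data known. Named besides the 10 were Nr4a1, Cd86, Cd83, H2-DMb1, H2-Ea-ps, up to 4 called genes a list with the largest changes, and the 5 genes nearest to March1 and to Ciita. Of the genes these rules name, 2 are not reported here.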

Additional observations from a re-analysis of the deposited data

Results flagged for a closer look

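Dixon's test of the highest and lowest library in groups of 4 marked 3 of 90 groups examined, where chance gives about 4.5. H2-Eb1 in knockout library C after anti-IgM was 2904 FPKM, above the 2760 to 2779 FPKM of the other 3 libraries of its group. H2-DMb2 in knockout library D after anti-IgM was 233 FPKM, below the 245 to 248 FPKM of the others. The pseudogene H2-Ea-ps was listed at 0 in knockout library C, beside 0.07 FPKM in each of the other 3.

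The response to anti-IgM differed between genotypes, by the interaction term in limma, for 4 of the 10 genes, against 18.9% of all genes tested. Higher in knockout was 1 of the 10, against 4.18%, and lower were 3, against 14.7%. The response in knockout minus that in wild type was 0.37 for H2-Aa (adjusted p = 0.0136), -0.31 for H2-Ab1 (adjusted p = 0.0181), -0.52 for Cd74 (adjusted p = 0.00390) and -0.37 for H2-DMa (adjusted p = 0.0402). Each value rests on 1 unstimulated library of each genotype, and how far these differ by genotype or by library cannot be told apart.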

How the results depend on the processing

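The count of the 10 genes called lower with anti-IgM was 6 under every alternative, and the count called higher lay between 0 and 4, with 0 for letter A only and 3 with each library left out. Called higher in knockout after anti-IgM were 2 genes under TPM, 1 under median-of-ratios, 1 under quantile scaling and 1 with the replicate letter as a block (Ciita, adjusted p = 0.0223), and 0 to 1 with each library left out. Of all 10225 genes, 381 were higher under TPM, 532 under median-of-ratios, 478 under quantile scaling and 329 with the block. Whether the letters pair the libraries was not settled. Same-lettered deviations correlated at 0.188, -0.268, -0.218 and -0.135 for A to D over 4081 genes, and the same letter was the closest match for A alone. Such correlations cannot exclude pairing, and Lyz2 was highest in letter B in both genotypes. Over all genes, anti-IgM gave 3188 higher and 4881 lower calls, under TPM 3706 and 3859, under median-of-ratios 3878 and 4108, and under quantile scaling 3891 and 3868. Of the 10 genes, those with a higher response in knockout numbered 0 without a filter, 2 at a mean of at least 5 FPKM, 3 under median-of-ratios and 0 under quantile scaling. Over all genes tested these numbers were, in the same order, 834 of 17658, 457 of 7683, 573 of 10225 and 874 of 10225. Those with a lower response numbered 5 under TPM and 1 under median-of-ratios, where 3455 and 818 of all 10225 genes were lower. With each library left out the numbers were 1 to 2 higher and 2 to 4 lower. The genotype difference of H2-DMa changed sign to 0.027 under median-of-ratios and 0.0064 under quantile scaling, and with each library left out it lay between -0.034 and 0.023, above 0 without wild-type library B or D or knockout library A or D. H2-Ob reversed to -0.013 under quantile scaling, and the change of Cd74 with anti-IgM to -0.11 without the unstimulated wild-type library, in a left-out range of -0.11 to 0.41. Reversed differences in response were -0.12 for March1, -0.15 for H2-Eb1 and -0.032 for H2-Ob under TPM, and -0.19 for H2-Eb1 under quantile scaling. The cause was not tested. With 1 unstimulated library a genotype and unknown absolute depth, changes with anti-IgM and differences in response have no replicate check on their unstimulated side.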

Other observations

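The MHC class I pathway presents peptides from the cell interior. Of 12 of its genes listed and tested, 9 fell with anti-IgM and 3 rose, beside 47.7% lower and 31.2% higher over all genes, and their median of -0.24 stood beside -0.17 for all genes. The immunoproteasome subunit Psmb9 changed by -1.69 (limma, adjusted p = 1.43e-07), the peptide transporter subunit Tap1 by -1.42 (limma, adjusted p = 8.66e-08), Psmb8 by -1.32 (limma, adjusted p = 1.36e-08) and Tap2 by -0.83 (limma, adjusted p = 2.64e-05). By genotype after anti-IgM, 1 of the 12 was called, beside 9.72% of all genes. This was B2m, the class I light chain, chosen here after its value was seen, at -0.094 (limma, adjusted p = 0.0436), called under 7 of 19 alternatives, and the call was lost without any 1 library except knockout library C.

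H2-Ea-ps, the pseudogene left of the I-E alpha chain, lay below the filter but separated the genotypes. It read 0.40 FPKM in wild type without stimulation and 0.38, 0.35, 0.36 and 0.30 FPKM after anti-IgM. In the knockout-labelled libraries it was listed at 0 without stimulation and in stimulated library C, and at 0.07 FPKM in each of stimulated libraries A, B and D. All 5 knockout libraries were below all 5 wild-type libraries, and with no filter on low values the difference after anti-IgM was -0.36 (limma, adjusted p = 8.69e-04). These levels lie near the floor, where the repeated value of 0.07 FPKM may be the smallest step. Absolute depth is unknown, so how many fragments carry the difference cannot be told.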
